A study of Mus musculus with 12 samples.

Results

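Heparanase is the enzyme that cuts heparan sulfate, and perlecan, the syndecans and the glypicans are core proteins that carry it. The 8 genes described here are Hpse (heparanase), Hspg2 (perlecan), 4 syndecans (Sdc1, Sdc2, Sdc3 and Sdc4) and 2 glypicans (Gpc1 and Gpc4), chosen by their symbols out of the 54547 genes of the deposited table. Hpse had drawn attention by its high level in RasV12 GFP+ cells in these same libraries, so its values in comparisons with a GFP+ group are given as a description without a test. The other 7 were chosen by family. All 8 genes passed the filter on low values, which asked 3 libraries to reach a normalized count of 10 and left 29835 genes. RNA came from cells sorted out of the brain of mice on a mixed 129;C57BL/6 background, in 4 groups of 3 libraries. RasV12 GFP+ cells and RasV12 CD11b+ phagocytes were taken from tumors of Msi1-CreER;RasV12 mice, control GFP+ cells and control CD11b+ phagocytes from the cerebellum of Msi1-CreER;GFP mice. The labels name a GFP allele for the control mice alone. Every group carried Msi1-CreER, in which a Cre recombinase that tamoxifen switches on is driven from the gene of the RNA-binding protein Musashi-1, while an oncogenic Ras (RasV12) was present in the tumor groups alone. Tumor against cerebellum and RasV12 against no RasV12 are the same contrast in this design and cannot be told apart. The sources used here do not give age, the time after induction, the sort gates or cell numbers.

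Heparan sulfate is a long sulfated sugar chain. It is built on core proteins in the Golgi, where sulfotransferases write a pattern that growth factors such as FGFs, VEGF and HB-EGF bind. Syndecans span the membrane and reach the cytoskeleton through their tails, glypicans hang on a lipid anchor, and perlecan is secreted into basement membranes. Heparanase cleaves within the chain and so releases bound factors and loosens matrix, and it is studied in tumor invasion and in platelets and leukocytes, which store it. In the brain, glypican-4 is known as a product of astrocytes that acts on synapses, and syndecan-3 as the syndecan of axons.

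Values below are normalized counts, that is, reads per gene divided by a factor per library, unless FPKM is named. Log2 fold changes are given ± SE on the log2(normalized count + 1) scale, which understates the change of low genes, and p-values are from limma, adjusted by Benjamini-Hochberg over all 29835 genes tested with a threshold of 0.05. Nothing in the labels ties a replicate to an animal, so these p-values measure the spread between libraries only. Recovered read totals lay between 18519240 and 34601205 in 9 libraries, at 7883870 in control CD11b+ 2, and at 3642570 and 2951629 in RasV12 CD11b+ 1 and 2, where 1 read was worth 4.46 and 5.54 normalized counts. Itgam, which encodes CD11b, was at 5117 ± 126 (SD, n = 3) in control and 1936 ± 1009 in RasV12 CD11b+ libraries and had 1 read in all 6 GFP+ libraries together. Stray signal was gauged from 1810 olfactory, vomeronasal and taste receptor genes, which sorted brain cells are not known to use. Their 95th percentile was 0.2 to 1.4 FPKM in 8 libraries, namely all GFP+ ones with control CD11b+ 1 and 3. It reached 11.4 in control CD11b+ 2 and 18.4 to 27.4 in the tumor phagocytes. Fewer cells of a type and less RNA per cell cannot be told apart in such bulk libraries.

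Hpse lies on chromosome 5 (100679484 to 100719716, minus strand, GRCm38) and had no read in any control GFP+ library. Its promoter is shown beside those of Sdc1 and Sdc3, the syndecans with the most positive and the most negative change in GFP+ cells. The stretches are RefSeq sequence of GRCm38.p6 upstream of the annotated start, at chr5:100719717-100719966 (minus strand), chr12:8771146-8771322 (plus strand) and chr4:130792287-130792536 (plus strand). Capitals mark the GC box GGGCGG on either strand, the core of the site of Sp/KLF factors.
Hpse: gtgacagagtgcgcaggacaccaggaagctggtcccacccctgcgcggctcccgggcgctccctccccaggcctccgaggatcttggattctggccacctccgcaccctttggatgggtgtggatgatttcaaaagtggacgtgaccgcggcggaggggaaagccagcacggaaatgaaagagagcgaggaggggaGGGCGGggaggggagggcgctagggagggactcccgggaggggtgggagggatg
Sdc1: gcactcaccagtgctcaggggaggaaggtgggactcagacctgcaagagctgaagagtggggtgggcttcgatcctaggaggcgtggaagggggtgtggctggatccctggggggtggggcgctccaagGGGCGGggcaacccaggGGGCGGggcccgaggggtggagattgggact
Sdc3: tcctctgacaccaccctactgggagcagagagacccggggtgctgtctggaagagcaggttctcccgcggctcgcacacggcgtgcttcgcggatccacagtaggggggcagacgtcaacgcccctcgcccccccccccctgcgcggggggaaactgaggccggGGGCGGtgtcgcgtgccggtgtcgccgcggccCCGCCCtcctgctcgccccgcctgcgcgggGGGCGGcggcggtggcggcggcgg
RefSeq promoters of 250 bases were at hand for 6 of the 8 genes, all but Sdc2 and Gpc1, and were 66.0 to 76.4% G or C. On both strands, none of the 6 held AP-1 (TGANTCA, in 6.7% of 32536 promoters), Egr (GCGNGGGCG, 4.7%; these letters hold most of a GC box), an E-box (CACGTG, 6.0%) or the NF-kB motif (4.1%), and ETS (CCGGAANT, 4.4%) matched once, in Sdc4. The GC box, added after those searches, was found in all 6, against 33% of all promoters. That share is not matched for G and C content, in which these 6 are rich, so no enrichment can be read from it. The GC box matched 5 times in Hspg2, 4 in Sdc4, 3 each in Sdc1 and Sdc3 and once each in Hpse and Gpc4. For Sdc1, 2 of its 3 matches lie in the printed stretch.

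Hpse stood at 1277.6, 4941.9 and 1582.2 in RasV12 GFP+ libraries 1, 2 and 3, and at 0 in all 3 control GFP+ libraries. Replicate 2 was the highest, and each of the 3 tumor libraries was far above every other library of the study. Set against a floor of 3 reads over the control group, for 0 reads there and 15874 in the RasV12 group, Hpse was at least 3065-fold higher, which covers counting error only. CD11b+ libraries were in between. Control CD11b+ 1, 2 and 3 gave 112.9, 247.0 and 42.5, and RasV12 CD11b+ 1, 2 and 3 gave 356.5, 0 and 178.4. The 2 CD11b+ groups overlapped, both lay above control GFP+ apart from the RasV12 CD11b+ library without a read, and both lay below RasV12 GFP+. Their log2 difference was -1.42 ± 1.75 (adjusted p = 0.623), and it turned positive without RasV12 CD11b+ 2 (1.24, adjusted p = 0.466). In FPKM, which is per length, Hpse passed the 95th percentile of receptor genes in 3 of 3 RasV12 GFP+ libraries, 1 of 3 control CD11b+ and 0 of 3 RasV12 CD11b+ libraries.

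Markers of platelets, a cell that carries heparanase, did not move together between the GFP+ groups. The sum over 5 of 6 listed platelet genes was 1889 to 3701 for tumor GFP+ libraries, against 223.0 to 371.2 for control ones. Nearly all of the tumor sum was Pf4, a platelet chemokine, at 3586.6, 2987.7 and 1830.4 against 54.6, 36.9 and 0. Without Pf4 the sum of the other 4 genes was lower in each tumor library than in each control, at 114.7, 60.7 and 58.9 with RasV12 against 316.6, 186.1 and 368.3 without it. Most of that control sum was the platelet receptor gene Gp1bb, at 316.6, 184.5 and 309.3 in control and 0.9, 33.8 and 3.9 in RasV12 GFP+ libraries. The lower sum without Pf4 rested on Gp1bb. Whether the Gp1bb reads came from platelets was not tested. Beyond Gp1bb, little of the sum was left in control GFP+ 1 and 2, more in RasV12 GFP+ 1 and 2, and similar amounts in library 3 of each group. Of the other platelet receptor genes, Itga2b read 80.8, 1.7 and 21.8 in RasV12 GFP+ 1, 2 and 3. Gp9 was at 0 in RasV12 GFP+ 1 and 2 and at 17.5 in 3, and at 0 in all control GFP+ libraries. Neutrophil markers summed to 2.5 to 83.2 and microglia and macrophage markers to 1192 to 2174 in RasV12 GFP+ libraries, against 17010 to 36220 and 230900 to 669700 in control CD11b+ libraries. The part of platelet RNA in the Hpse level was not tested.

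**Figure D1:**
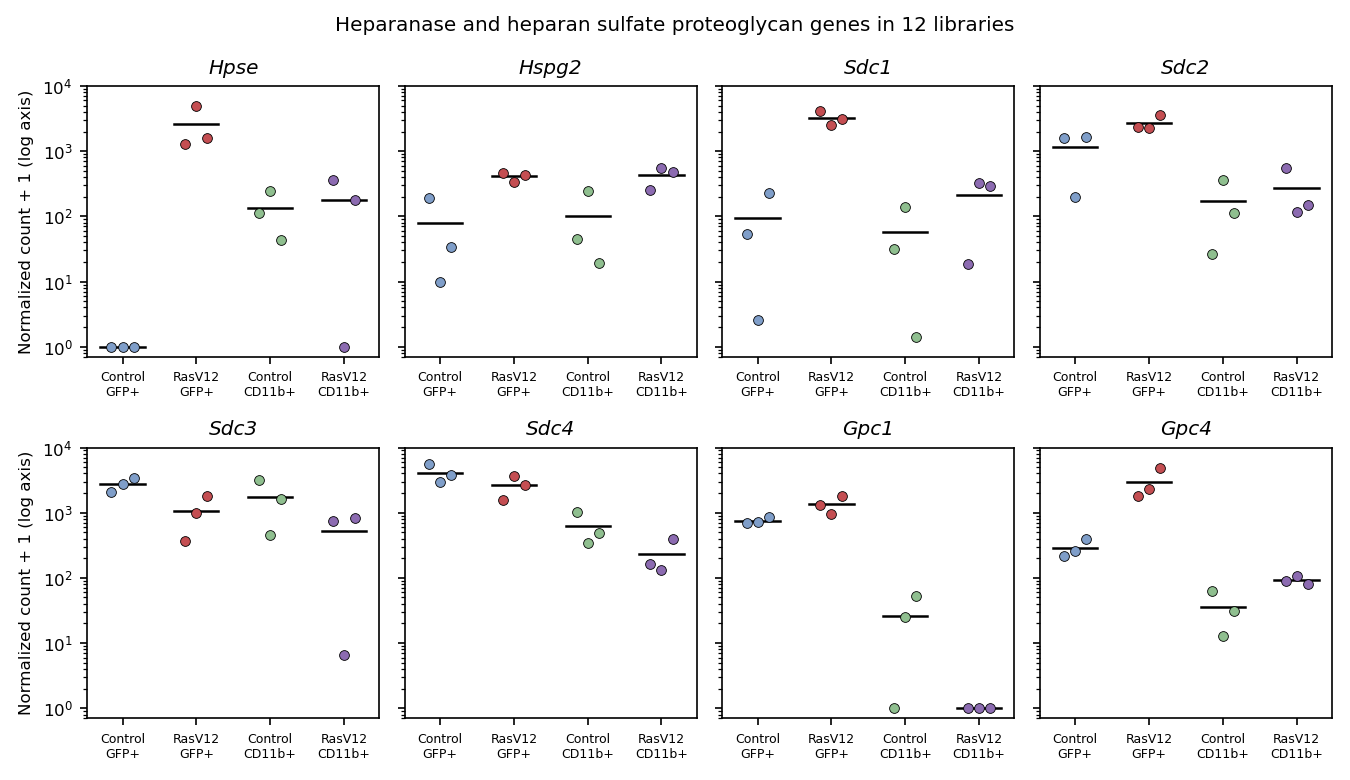
Normalized count + 1 (log axis) of the 8 genes in each of 12 libraries; points are libraries, bars are group means of 3. Hpse is at 0 in all control GFP+ libraries and at 1277.6 to 4941.9 in RasV12 GFP+, Sdc1 and Gpc4 rise between the GFP+ groups without overlap, and Gpc1 is at 0 in all RasV12 CD11b+ libraries.

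Among the core proteins in GFP+ cells, syndecan-1 and glypican-4 transcripts rose in RasV12 cells, and syndecan-4, the most abundant in control cells, did not pass the test. With Hpse set aside, 2 of the 7 were higher and 0 lower, where limma called 4.14% of all genes higher and 2.65% lower. At an unadjusted p under 0.05 there were 3 of the 7. The share of all genes at that unadjusted level is not given, here or for later such counts. The count of 2 was 0 with quantile normalization or background subtraction and without control GFP+ 2 or any 1 RasV12 GFP+ library. The median log2 change of the 7 was 1.73, against 0.56 over all genes tested.

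Sdc1, the syndecan of epithelia and plasma cells (chromosome 12, 8771323 to 8793715), was at 52.9, 1.6 and 226.9 in control GFP+ and at 4097.8, 2502.2 and 3112.2 in RasV12 GFP+ libraries. The 3 control values were spread over a wide range, yet all were far below the tumor values. The log2 fold change was 6.64 ± 1.80 (adjusted p = 0.0417). The direction was the same in 27 of 27 alternatives, and the call was kept in 12, with adjusted p between 0.00554 and 0.145. Leaving out control GFP+ 1 gave 0.0694, control GFP+ 2 gave 0.145, RasV12 GFP+ 1, 2 and 3 gave 0.138, 0.111 and 0.115, and control CD11b+ 1 and RasV12 CD11b+ 3 gave 0.0604 and 0.0509. edgeR's quasi-likelihood test gave an adjusted p of 0.0825, and background subtraction 0.144.

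Gpc4 (chromosome X, 52053021 to 52165252) was at 217.4, 260.6 and 388.6 in control GFP+ and at 1820.8, 2293.5 and 4862.9 in RasV12 GFP+ libraries. Here the control libraries were close together and every tumor library lay above them. The log2 fold change was 3.28 ± 0.76 (adjusted p = 0.0192). The call was kept in 20 of 27 alternatives, edgeR included (0.0219). It was lost without control GFP+ 1 (0.0569) or 2 (0.0512), without RasV12 GFP+ 1 (0.0506), 2 (0.0693) or 3 (0.110), with quantile normalization (0.234) and with background subtraction (0.248).

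Sdc2, a syndecan of mesenchymal and neural cells (chromosome 15, 32920723 to 33034935), read 1617.8, 196.5 and 1629.8 in control and 2340.2, 2253.4 and 3627.9 in RasV12 GFP+ libraries. The groups did not overlap, but control GFP+ 2 was far below its own replicates, and the change of 1.73 ± 1.03 did not pass (adjusted p = 0.416). Hspg2 (chromosome 4, 137468769 to 137570630), whose product perlecan belongs to vessel basement membranes, read 191.2, 8.8 and 32.6 in control and 463.8, 334.2 and 428.8 in RasV12 GFP+ libraries. It was higher in each tumor library than in each control library, with a change of 3.35 ± 1.14 (adjusted p = 0.107). Control GFP+ 1 was the highest of the control libraries, and without it the change was 4.48 (adjusted p = 0.0341). Array weights gave an adjusted p of 0.0472, and the adjusted p ranged up to 0.327 over the other settings. Endothelial markers summed over 10 genes to 9010 to 12280 in control and 2764 to 3318 in RasV12 GFP+ libraries. Those of pericytes, smooth muscle and fibroblasts summed to 4299 to 10960 and 3679 to 6778, which overlapped. The part of vessel cells in the Hspg2 values was not tested.

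Gpc1 (chromosome 1, 92831645 to 92860779), a glypican of neurons and of several carcinomas, read 688.3, 717.0 and 851.5 in control and 1310.1, 960.2 and 1794.3 in RasV12 GFP+ libraries, 0.81 ± 1.27 on the log2 scale (adjusted p = 0.825). All control values were below all tumor values, but the shift was small against the SE. Exons of Gpc1 overlap Ankmy1 on the other strand, and those of Sdc3 overlap Gm12970 and Gm26716. The library kit does not mark strand, so reads of these pairs cannot be told apart.

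Sdc3 (chromosome 4, 130792537 to 130826319) read 2043.1, 2770.0 and 3434.5 in control and 371.2, 1001.4 and 1801.1 in RasV12 GFP+ libraries. Each tumor library was below each control library, and the change of -1.62 ± 1.44 did not pass (adjusted p = 0.649). Sdc4, a partner of integrins in focal adhesions (chromosome 2, 164424247 to 164443887), read 5598.8, 2923.2 and 3849.6 in control and 1549.9, 3675.6 and 2632.6 in RasV12 GFP+ libraries. The groups overlapped and the change was -0.69 ± 0.57 (adjusted p = 0.613). Neuron markers summed to 68680 to 96330 in control and 1734 to 2599 in RasV12 GFP+ libraries, and those of oligodendrocytes to 968900 to 1609000 and 2866 to 17700. Astrocyte and Bergmann glia markers summed to 275600 to 303900 and 36810 to 94810. The share of mitochondrial counts was 20.1 to 30.4% in control and 1.53 to 2.62% in RasV12 GFP+ libraries. What these shifts contribute to the values of the 8 genes was not tested.

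**Figure D2:**
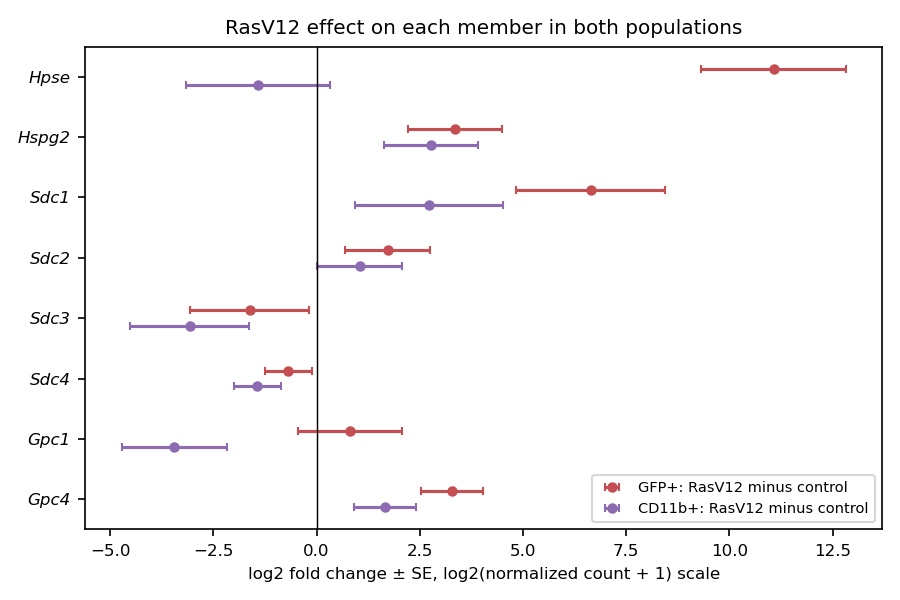
Log2 fold change of RasV12 over control (x axis, ± SE, log2(normalized count + 1) scale) of each gene in GFP+ and in CD11b+ cells. In GFP+ cells Hpse (11.07), Sdc1 (6.64) and Gpc4 (3.28) stand to the right, and in CD11b+ cells the changes run from -3.45 (Gpc1) to 2.78 (Hspg2). The Hpse point in GFP+ cells and the Gpc1 point in CD11b+ cells rest on a group without reads and depend on the count of 1 that was added.

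On the FPKM scale the order of the 8 genes differed between the GFP+ groups. In control cells Sdc4 led with 97.1 ± 32.0 (SD, n = 3), followed by Sdc3 (27.5 ± 7.0), Sdc2 (19.5 ± 14.0), Gpc1 (8.73 ± 1.02), Gpc4 (6.53 ± 2.03), Sdc1 (1.47 ± 1.89), Hspg2 (0.30 ± 0.44) and Hpse, listed at 0. Neighbours in this order overlapped, except Sdc4 with Sdc3 and Gpc4 with Sdc1. In RasV12 cells 5 transcripts stood close together, Gpc4 at 67.7 ± 37.0, Sdc4 at 61.7 ± 25.1, Sdc1 at 51.0 ± 12.7, Sdc2 at 46.6 ± 13.1 and Hpse at 44.4 ± 34.7, and their neighbours all overlapped. Gpc1 at 15.8 ± 4.9, Sdc3 at 10.6 ± 7.2 and Hspg2 at 1.70 ± 0.26 were lower, and of these neighbours Gpc1 and Sdc3 overlapped.

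The make-up of the core transcripts differed between the GFP+ groups, given as shares of the summed FPKM of the 7 core genes. Sdc4 made up 60.0 ± 8.0% of the sum in control GFP+ and 24.5 ± 10.2% in RasV12 GFP+ libraries, with ranges of 51.8 to 67.8% and 18.0 to 36.3% that did not overlap. Sdc3 went from 18.2 ± 7.0% to 3.86 ± 1.90%. Gpc4 went from 4.24 ± 1.49% to 25.4 ± 7.5% and Sdc1 from 0.82 ± 1.08% to 21.2 ± 9.3%, again without overlap. Gpc1 had shares of 5.68 ± 1.58% and 6.22 ± 1.42%, which overlapped. The summed FPKM itself was 194.3, 114.0 and 175.2 in control and 202.8, 238.8 and 323.4 in RasV12 GFP+ libraries, each tumor library above each control library. With 3 libraries against 3 an exact two-sided permutation test cannot go below 0.10, so no test is given for shares.

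**Figure D3:**
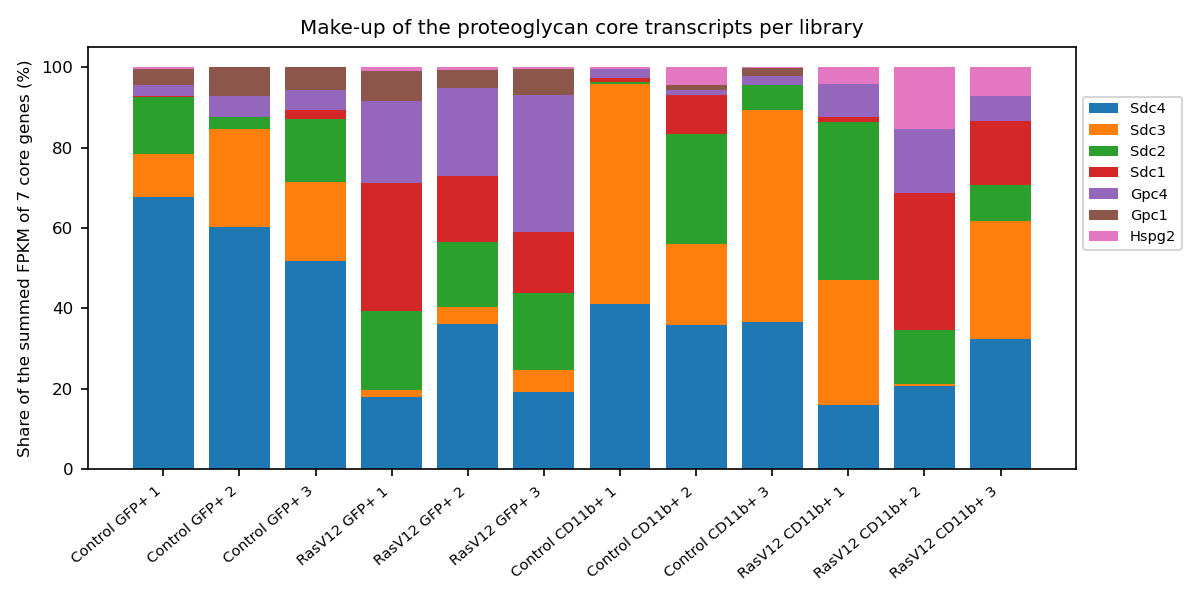
Share (%) of each of 7 core genes in their summed FPKM, 1 bar per library. Sdc4 makes up 51.8 to 67.8% of control GFP+ bars and 18.0 to 36.3% of RasV12 GFP+ bars, where Gpc4 and Sdc1 take the larger part of the difference. Bars of RasV12 CD11b+ libraries rest on values below the 95th percentile of receptor genes.

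In CD11b+ phagocytes no change with RasV12 was called for any of the 8 genes. limma called 0 of 8 at the threshold, where 2.97% of all genes were called higher and 2.39% lower. At an unadjusted p under 0.05 there were 4 of 8, with no share of all genes at that level to set beside them. edgeR called 0 and DESeq2 called 1, Gpc1. The median log2 change of the 8 was -0.18, and with Hpse left out it was 1.05, against 0.74 over all genes tested. Leaving out this gene thus changed its sign and its side of the all-gene median, so no shared direction can be read from it. In none of the 3 RasV12 CD11b+ libraries did any of the 8 genes pass the 95th percentile of receptor genes, so their values there are at the level that stray signal reaches. In control CD11b+ libraries Sdc3 and Sdc4 passed it in 2 of 3, Hpse and Sdc2 in 1 of 3 and the other 4 in none. Mitochondrial counts went the other way than in GFP+ cells, at 0.63 to 2.54% in control and 13.3 to 17.7% in RasV12 CD11b+ libraries. Replicates correlated at r of 0.512 to 0.537 in RasV12 CD11b+ and 0.657 to 0.887 in control CD11b+ libraries. In control and RasV12 GFP+ libraries r was 0.812 to 0.843 and 0.842 to 0.88. What these differences contribute to the values was not tested.

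**Figure D4:**
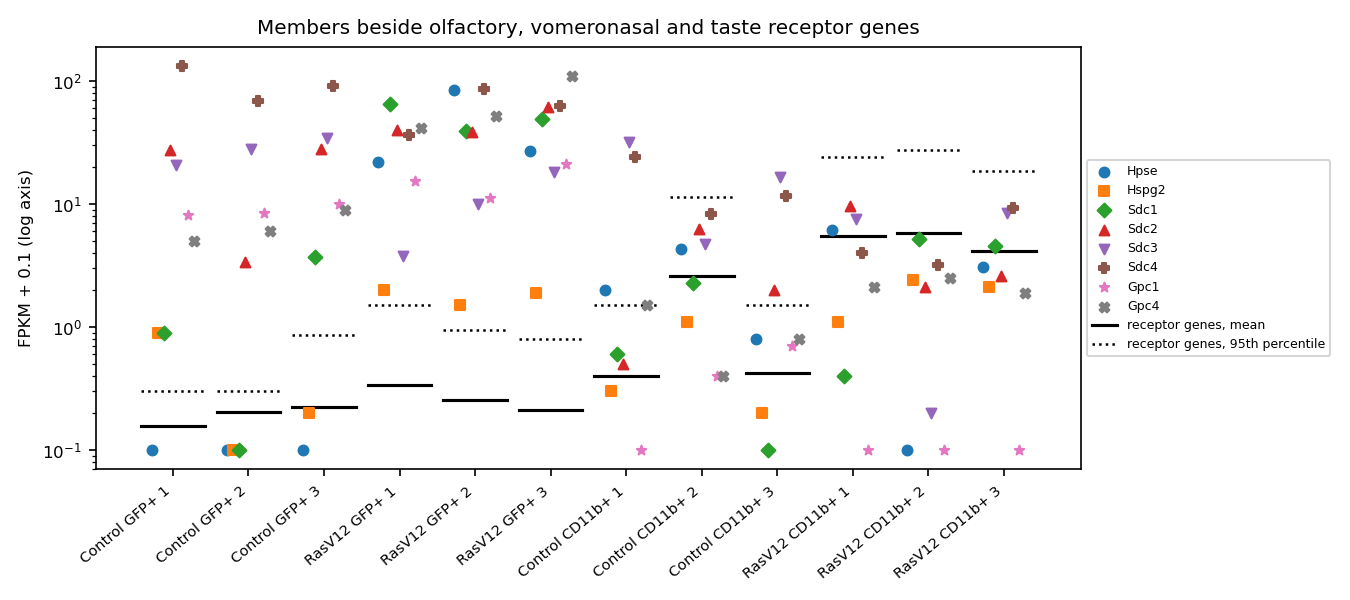
FPKM + 0.1 (log axis) of the 8 genes in each library, with the mean (line) and 95th percentile (dotted) of 1810 receptor genes. In RasV12 CD11b+ libraries all 8 genes lie under the dotted line, which stands at 18.4 to 27.4 FPKM; in RasV12 GFP+ libraries all 8 lie above it.

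Control phagocytes held mainly Sdc3 and Sdc4. Sdc3 read 3170.0, 459.5 and 1645.4 in control CD11b+ libraries and 744.2, 5.5 and 830.0 in RasV12 CD11b+ libraries. Control CD11b+ 2 overlapped the tumor libraries, and the change was -3.07 ± 1.44 (adjusted p = 0.192). Sdc4 read 1009.6, 347.3 and 486.7 in control and 164.9, 132.9 and 392.8 in RasV12 CD11b+ libraries, overlapping too, with a change of -1.43 ± 0.57 (adjusted p = 0.139). In control CD11b+ cells Sdc3 and Sdc4 made up 42.5 ± 19.4% and 37.9 ± 2.7% of the summed FPKM of the 7 core genes, which came to 58.0, 22.8 and 31.3.

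Gpc1 read 0, 23.9 and 51.2 in control CD11b+ libraries and had no read in any RasV12 CD11b+ library. Against a floor of 3 reads over the RasV12 group, the control group was at least 21.8-fold higher, and the limma adjusted p was 0.115. Of the 134 control reads 118 came from control CD11b+ 3, and without that library the bound was 5.68-fold and the adjusted p 0.394. Without control CD11b+ 1, which was at 0 like the tumor libraries, the bound was 31.1-fold and the adjusted p 0.0320. Gpc4 was low, at 61.1, 12 and 29.5 in control and 89.1, 105.2 and 80.5 in RasV12 CD11b+ libraries. Its groups did not overlap and its change was 1.66 ± 0.76 (adjusted p = 0.183). Hspg2 read 43.9, 242.5 and 18.2 in control and 249.6, 559.4 and 482.3 in RasV12 CD11b+ libraries, a change of 2.78 ± 1.14 (adjusted p = 0.148). Control CD11b+ 2, the library with the higher receptor signal, was close to the tumor libraries, and without it the adjusted p was 0.0428. Endothelial markers summed to 720.8 to 2756 in control and 4946 to 5450 in RasV12 CD11b+ libraries and those of pericytes and fibroblasts to 304.2 to 2798 and 3052 to 4176. Their part in the perlecan values was not tested.

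The remaining syndecans were low in phagocytes. Sdc1 read 30.6, 137.7 and 0.4 in control and 17.8, 321.2 and 287.1 in RasV12 CD11b+ libraries (change 2.72 ± 1.80, adjusted p = 0.340). Sdc2 read 25.1, 366.7 and 113.3 in control and 557.0, 116.3 and 147.1 in RasV12 CD11b+ libraries (change 1.05 ± 1.03, adjusted p = 0.528). Both genes overlapped between the groups. The change of Sdc2 reversed to -0.53 with quantile normalization and to -3.21 after receptor background was subtracted, and that of Gpc4 to -0.086 and -3.26.

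Between the populations, glypicans, Sdc2 and Sdc4 were lower in CD11b+ than in GFP+ cells, in tumors and in controls alike. Of the 7 genes other than Hpse, 4 were lower and 0 higher in tumor CD11b+ against tumor GFP+ cells, where 29.8% of all genes were called higher and 10.2% lower. Again 4 were lower and 0 higher in control CD11b+ against control GFP+ cells, where 19.3% of all genes were called higher and 6.91% lower. The median log2 difference of the 7 was -3.65 in tumors and -2.84 in controls, against 1.79 and 1.80 over all genes, and quantile normalization moved those all-gene medians to 0.30 and -0.02. The 2 comparisons have no library in common, but each shares libraries with the RasV12 comparisons above.

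Gpc4 was lower in CD11b+ cells, with a log2 difference of -4.89 ± 0.76 in tumors (adjusted p = 0.000911) and -3.27 ± 0.76 in controls (adjusted p = 0.00813). Its 4 groups stood in the order control CD11b+, RasV12 CD11b+, control GFP+ and RasV12 GFP+, with no overlap between neighbours. In RasV12 CD11b+ libraries Gpc4 was at 1.8 to 2.4 FPKM, below the receptor mean in each. The order of the CD11b+ groups is therefore within the reach of stray signal. Sdc4 was lower too, at -3.58 ± 0.57 in tumors (adjusted p = 0.00108) and -2.84 ± 0.57 in controls (adjusted p = 0.00394). For Gpc1 the RasV12 GFP+ group was at least 979.8-fold above RasV12 CD11b+ cells, which had no read (adjusted p = 0.000264), and in controls the log2 difference was -6.10 ± 1.27 (adjusted p = 0.00459). These tumor and control calls were kept in 27 of 27 alternatives, except that of Sdc4 in controls, kept in 26 and lost with background subtraction (adjusted p = 0.338).

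Sdc2 was lower in CD11b+ cells, at -3.65 ± 1.03 in tumors (adjusted p = 0.0143) and -2.96 ± 1.03 in controls (adjusted p = 0.0484). The tumor call was kept in 25 of 27 alternatives, lost without RasV12 GFP+ 3 (0.0544) and without RasV12 CD11b+ 1 and 2 together (0.0694). The control call was kept in 13, and leaving out control CD11b+ 1 gave 0.160, control CD11b+ 3 0.0899, and control GFP+ 1 and 3 0.146 and 0.141. It was also lost without any 1 of the RasV12 GFP+ libraries (0.0663 to 0.0674) or without RasV12 CD11b+ 3 (0.0517). Sdc1 missed the threshold in tumors, at -4.72 ± 1.80 (adjusted p = 0.0509), and passed it in 13 of 27 alternatives. In controls it was at -0.79 ± 1.80 (adjusted p = 0.748). Sdc3 did not pass in either, at -2.46 ± 1.44 in tumors and -1.01 ± 1.44 in controls (adjusted p = 0.183 and 0.604). Hspg2 did not pass, at 0.01 ± 1.14 and 0.58 ± 1.14 (adjusted p = 0.999 and 0.712), except after background subtraction in tumors, where it was -8.53 (adjusted p = 0.00374).

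Whether RasV12 changed the 2 populations differently was tested as an interaction, the RasV12 change in CD11b+ minus that in GFP+ cells. None of the 7 genes other than Hpse passed in limma, where 2.06% of all genes were called higher and 2.34% lower at the same threshold. Only 1 of the 7 had an unadjusted p under 0.05. That 1 was Gpc1, at -4.26 ± 1.79 (adjusted p = 0.213), and it passed with edgeR (0.0472), with DESeq2 (0.0124) and without control CD11b+ 1 (0.0313). Sdc1 was at -3.93 ± 2.55 (adjusted p = 0.438), so its change in GFP+ cells is not shown to differ from that in phagocytes. The others lay between -1.62 (Gpc4) and -0.57 (Hspg2), with adjusted p of 0.451 to 0.899. The median SE of such a difference was 1.93, so a difference of a few fold was not detectable.

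The wider heparan sulfate machinery was read from 8 lists of 74 genes, drawn up with earlier results of these libraries known. In RasV12 GFP+ cells 15 of the 71 tested rose and 0 fell, 21.1% against 4.14% of all genes called higher, with a median log2 change of 1.46 against 0.56. The count fell to 5 to 9 when control GFP+ 2 or any 1 RasV12 GFP+ library was left out, 9 with the 6 GFP+ libraries alone, 8 with quantile normalization, 6 with edgeR and 4 with background subtraction, and it was 16 without RasV12 CD11b+ 1 and 2.

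Among 10 other core proteins 5 rose in RasV12 GFP+ cells and 0 fell, where limma called 4.14% of all genes higher. Of these 10, edgeR called 2 and DESeq2 called 6. DESeq2 called far more of all genes than edgeR did, as given with the processing below, so its list counts stand against a larger share. Col18a1, the collagen that yields endostatin, read 67.7, 44.1 and 165.8 in control and 2147.8, 2162.3 and 2114.0 in RasV12 GFP+ libraries, 4.74 ± 0.87 on the log2 scale (adjusted p = 0.00552). The tumor values were nearly equal and far above the controls. Cd44, a hyaluronan receptor with heparan sulfate on some isoforms, rose from 104.9 ± 125.2 to 3669 ± 395 (7.13 ± 1.40, adjusted p = 0.00782). The glypican Gpc5 rose from 15.6 ± 24.5 to 489.2 ± 103.6 (6.28 ± 1.31, adjusted p = 0.0113).

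Of 12 genes of the linker and of chain synthesis, limma called 0 in GFP+ cells (5 at an unadjusted p under 0.05, edgeR 0, DESeq2 0), with a median log2 change of 0.64. Of 16 modification enzymes 3 rose and 0 fell in limma (edgeR called 2, DESeq2 5). These 3 were 18.75% of the list, against 4.14% of all genes called higher. All 3 called by limma were 3-O-sulfotransferases, which add the rarest sulfate of the chain. Hs3st3b1 read 0, 0 and 169.9 in control and 2036.7, 2207.0 and 2833.3 in RasV12 GFP+ libraries (adjusted p = 0.0123). Hs3st5 had no read in control and read 102.5, 112.9 and 288.6 in RasV12 GFP+ libraries (adjusted p = 0.00135), and Hs3st3a1 had 1 read in control and stood at 113.4 ± 24.5 (adjusted p = 0.00755). Sulf2, a secreted enzyme that removes 6-O-sulfates from finished chains, rose from 670.6 ± 444.8 to 6534 ± 1062 (3.59 ± 0.83, adjusted p = 0.0192). In its list of 2 such enzymes edgeR called 0 and DESeq2 called 1.

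Among factors that bind the chains, 4 of 13 genes rose in RasV12 GFP+ cells and 0 fell in limma (edgeR called 1, DESeq2 6). These 4 were 30.8% of the list, where limma called 4.14% of all genes higher. Hbegf, an EGF receptor ligand held by heparan sulfate, read 1974.2, 619.1 and 806.7 in control and 26423.4, 17294.1 and 12471.4 in RasV12 GFP+ libraries, 4.16 ± 0.63 (adjusted p = 0.00169). Met, the receptor of hepatocyte growth factor, rose from 10.2 ± 8.9 to 201.3 ± 30.5 (adjusted p = 0.0320), and Ptn (pleiotrophin, a ligand of Sdc3) rose by 2.1 ± 0.54 (adjusted p = 0.0326). Of 8 syndecan partners and sheddases 2 were higher in limma (edgeR called 1, DESeq2 3). The 2 were Mmp14, which cuts syndecan-1, by 2.77 ± 0.64 (adjusted p = 0.0187), and Adam10 by 1.80 ± 0.47 (adjusted p = 0.0343). The paralog Hpse2 (adjusted p = 0.804) and Ctsl, the lysosomal protease that activates heparanase, did not pass in GFP+ cells. For Ctsl the means were 8917 ± 4693 (control) and 13490 ± 3995 (RasV12). Of 8 genes for lysosomal breakdown of the chains limma called 0 there (4 at an unadjusted p under 0.05, edgeR 0, DESeq2 2).

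In CD11b+ phagocytes the lists held 6 lower and 3 higher genes of 71, 8.45% and 4.23% (all genes 2.39% and 2.97%), with a median of -0.20. Lysosomal breakdown made up 3 of the 6. Ids and Sgsh, a sulfatase and a sulfamidase of this route, were among them, at -4.17 ± 0.70 and -4.01 ± 0.88 (adjusted p = 0.00814 and 0.0229). Ctsl read 47527.9, 12426.4 and 19542.8 in control and 11033.7, 2680.5 and 2789.6 in RasV12 CD11b+ libraries, a change of -2.38 ± 0.58 (adjusted p = 0.0333). The other lower genes were Extl3, an enzyme of chain synthesis, and Mdk, midkine. Hpse2, a paralog without heparanase activity, was called higher (adjusted p = 0.0113), at 84.7, 94.1 and 128.5 against 0, 0 and 3.5, below the receptor 95th percentile in every library. The count of lower genes was 0 with the 6 CD11b+ libraries alone, 2 without control CD11b+ 1 or 3, 16 without control CD11b+ 2 and 3 without RasV12 CD11b+ 1 and 2. Microglia and macrophage markers were lower there as well, with sums of 66040 to 104900 against 230900 to 669700 in control CD11b+ libraries. The part of this in the lysosomal values was not tested.

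**Figure D5:**
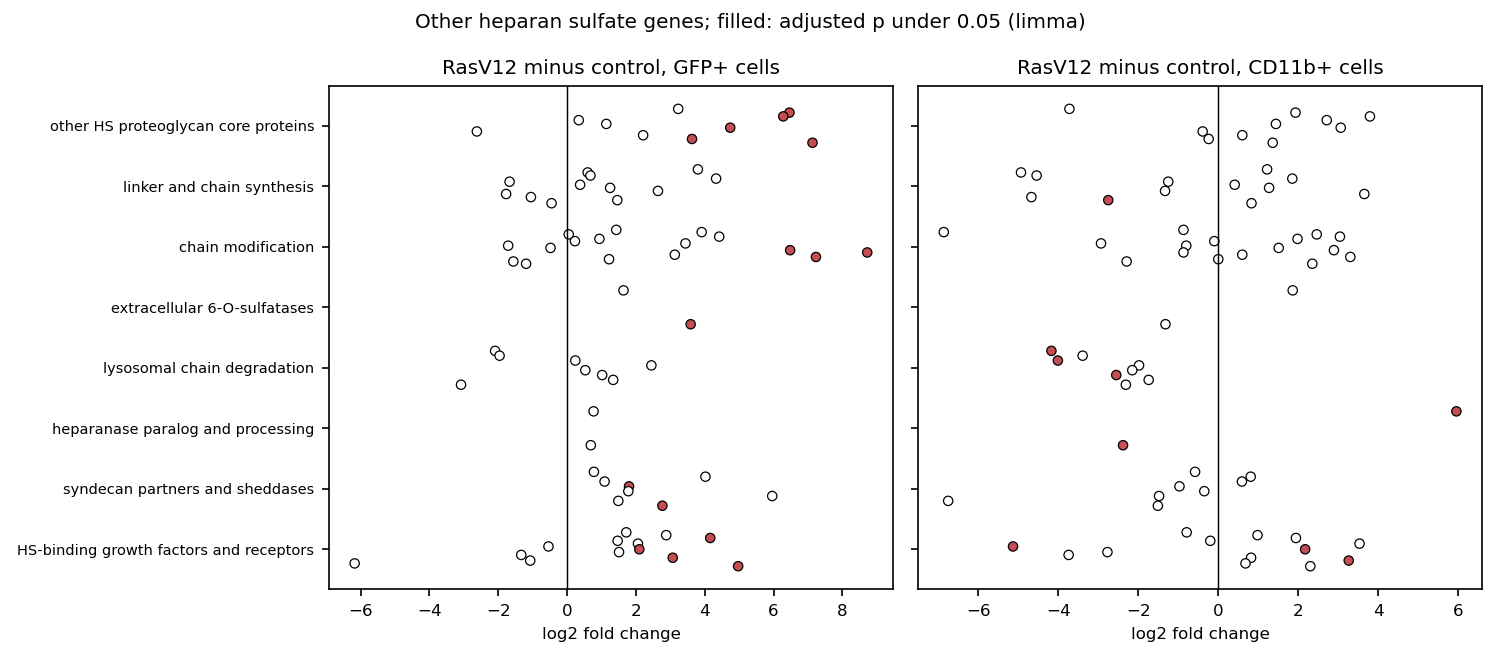
Log2 fold change of RasV12 over control (x axis) of each tested gene of 8 heparan sulfate lists, in GFP+ (left) and CD11b+ cells (right); filled points have an adjusted p under 0.05 in limma. In GFP+ cells the 15 filled points are all to the right of 0, in CD11b+ cells 6 are to the left and 3 to the right.

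Between populations the lists gave 24 lower and 5 higher of 71 in tumor CD11b+ against tumor GFP+ cells, and 12 lower and 17 higher in control CD11b+ against control GFP+ cells. In tumors these were 33.8% lower and 7.04% higher, where 10.2% and 29.8% of all genes were called. In controls they were 16.9% lower and 23.9% higher, where 6.91% and 19.3% of all genes were called, so the share higher was near that of all genes. The intracellular proteoglycan Srgn (serglycin), known from leukocyte granules, was higher in phagocytes by 4.57 ± 0.77 in tumors and 2.33 ± 0.77 in controls (adjusted p = 0.00140 and 0.0411). Gusb and Naglu, of lysosomal breakdown, were higher in control phagocytes by 4.14 ± 0.61 and 4.32 ± 0.70. In the test of the difference of RasV12 effects, 8 of 71 were lower and 1 higher, or 11.3% and 1.41%, where 2.34% and 2.06% of all genes were called. Sulf2 was among them at -4.91 ± 1.18 (adjusted p = 0.0325), and so was Mmp14 at -4.28 ± 0.90 (adjusted p = 0.0176).

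Of 15769 named genes with a mean of at least 100 in some group, the 5 with the pattern most like that of Hpse over the 12 libraries were Robo3 (Pearson r = 0.963 on the log2 scale), Lhfpl1 (0.945), Esm1 (0.938), Crispld2 (0.929) and Plet1 (0.921). The 12 points share 4 groups and their depths, so these values only describe the pattern. Robo3, an axon guidance receptor, read 0.6, 0 and 0 in control GFP+ and 780.4, 681.6 and 542.9 in RasV12 GFP+ libraries. Esm1, itself a secreted proteoglycan, read 0.6, 0 and 2.0 and 730.7, 948.7 and 1831.5. Both were near 0 in RasV12 CD11b+ 2, as Hpse was, at 5.5 and 0. The core genes were far less like Hpse, from 0.495 for Sdc1 to -0.086 for Sdc4.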

How the data were processed

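The kinds of value used were both made by the authors: normalized counts, a signal in which reads were divided by 1 factor per library, and FPKM, deposited with the same scaling. Per the labels' protocols, RNA was taken up in Sepazol, and the SMARTer Universal Low Input kit was followed by Nextera XT. The submitters' processing notes name DESeq2 1.20.0, featureCounts with Subread 1.6.2, HISAT2 2.1.0, bcl2fastq 2.17.1.14 and the build GRCm38.p6, without their roles.

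Dividing by a step found for each library turned 100% of the deposited normalized counts into whole reads (tolerance 0.05), and their sums gave the depths. 1 read was worth 0.358 to 5.54 normalized counts. On these reads edgeR 4.0.16 called 1122 and DESeq2 1.42.0 called 4907 genes in the GFP+ comparison, and 434 and 2357 in the CD11b+ comparison. limma 3.58.1 in R 4.3.3 (limma-trend) was the main test, on log2(normalized count + 1), fitted to all 12 libraries with a mean for each group, for 5 comparisons. It was also run on simulated data with the same spread set for every gene, which does not show how it performs on libraries as uneven as these. Of the gene IDs, 98.5% matched GENCODE annotation. A fold against a group without reads used a floor of 3 reads over the group.

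The genes, lists and markers were chosen with earlier results of these data known. The naming rule took all 8 genes, up to 3 called genes per list and comparison with the smallest adjusted p, of which a selection is given, Hpse2, Ctsl, the 5 genes most like Hpse, and Itgam. Platelet, endothelial and other markers are given as sums, with Pf4, Gp1bb, Itga2b and Gp9 singled out after their values were seen. Alternatives were quantile and upper-quartile scaling, the FPKM table, robust variance, array weights, 2 other pseudocounts, 2 other filters, a replicate block, 6 libraries, edgeR, DESeq2, leaving out libraries, and subtracting receptor background per length. The counts of list genes under them, the counts without Hpse and the Gpc1 bound without 1 control library were added after seeing the data.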

Additional observations from a re-analysis of the deposited data

Results flagged for a closer look

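For Hpse the log2 change with RasV12 in CD11b+ minus that in GFP+ cells was -12.49, given as a description only. It Hpse read 0 in all 3 control GFP+ libraries and 1277.6 to 4941.9 in the tumor GFP+ libraries. CD11b+ libraries ranged from 42.5 to 247.0 in controls and from 0 to 356.5 in tumors. Hpse was selected on its level in RasV12 GFP+ cells, so no p is given, and the size depends on the count of 1 added to a group without reads.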

How the results depend on the processing

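Numbers of genes called over all genes depended on the processing. In GFP+ cells 2027 genes were called (60.9% higher), 1043 with quantile normalization (49.3% higher), 4097 with array weights, 1122 with edgeR, 4907 with DESeq2 and 1132 with background subtraction, and 1042 to 2382 without 1 library. Of the 7 genes other than Hpse, 2 were called there, 0 with quantile normalization or background subtraction, and 1 with a pseudocount of 0.5, no filter, the replicate block, 6 libraries, edgeR or without RasV12 CD11b+ 1 and 2 (0 to 2 without 1 library). In CD11b+ cells 1599 (55.4% higher) became 2608 with FPKM, 2421 with quantile normalization (30.5% higher), 3542 with a pseudocount of 5 (68.8% higher), 3808 with array weights, 0 with 6 libraries, 434 with edgeR (6.9% higher), 2964 with background subtraction (21.0% higher) and 836 without RasV12 CD11b+ 1 and 2 (32.8% higher), and 373 to 5248 without 1 library. Upper-quartile scaling gave 1878 (29.8% higher). Of the 8 genes 0 were called there, 1 with quantile normalization (Sdc4) and 1 with DESeq2 (0 to 1 without 1 library). Between tumor populations 11953 (74.4% higher) became 4692 with edgeR (32.7% higher) and 5181 without RasV12 CD11b+ 1 and 2, where 3 in place of 4 of the 7 genes were called (8118 to 12797 and 3 to 5 without 1 library). The share higher there was 61.5% with upper-quartile scaling, 44.7% with quantile normalization and 31.6% with background subtraction. Between control populations 7826 (73.7% higher) became 4104 with quantile normalization (44.3% higher), 4613 with edgeR (63.1% higher) and 3647 with background subtraction (47.1% higher), where 2 in place of 4 of the 7 genes were called (5160 to 8707 and 3 to 4 without 1 library). For the difference of effects 1312 (46.9% higher) became 3102 with array weights, 3129 with DESeq2 and 2440 with background subtraction (20.6% higher), and 578 to 2227 without 1 library. It was 32.2% higher with upper-quartile scaling and 26.6% with edgeR. Of the 7 genes 0 were called, 1 with edgeR and 1 with DESeq2, Gpc1 in both (0 to 1 without 1 library). The 15 higher list genes in GFP+ cells became 8 with quantile normalization, 9 with 6 libraries, 6 with edgeR and 4 with background subtraction (5 to 17 without 1 library). The 6 lower list genes in CD11b+ cells became 10 with upper-quartile scaling, 13 with quantile normalization, 10 with a pseudocount of 5, 15 with array weights, 0 with 6 libraries, 11 with DESeq2, 11 with background subtraction and 3 without RasV12 CD11b+ 1 and 2 (2 to 16 without 1 library). Directions reversed only for changes that had not passed. In CD11b+ cells Hpse went to 0.42 with DESeq2, 1.24 without RasV12 CD11b+ 2 and 0.74 without 1 and 2, Sdc2 to -0.53 with quantile normalization and -3.21 with background subtraction, Gpc4 to -0.086 and -3.26, and Hspg2 to 0 with background subtraction. Hspg2 between tumor populations went to -0.013 with FPKM, -0.73 with upper-quartile scaling, -0.94 with quantile normalization, -1.20 with edgeR, -8.53 with background subtraction, and -0.13, -0.22 and -0.12 without RasV12 GFP+ 2, RasV12 CD11b+ 2 and RasV12 CD11b+ 3. Between control populations it went to -0.91 with quantile normalization, -0.85 with array weights, -0.38 with edgeR, -3.34 with background subtraction, -0.44 without control GFP+ 2 and -0.44 without control CD11b+ 2, and Sdc1 to 0.63 and 1.06 without control GFP+ 3 and control CD11b+ 3. In the difference of effects, Hspg2 went to 0.86 with array weights and 0.44 and 0.45 without control GFP+ 2 and control CD11b+ 2, Sdc2 to 0.078, 0.33 and 0.23 in the same settings, Sdc3 to 0.85 without RasV12 CD11b+ 2 and 0.93 without 1 and 2, and Sdc4 to 0.19 without 1 and 2. Without 1 library, values ranged from -3.00 to 1.24 for Hpse in CD11b+ cells, -0.22 to 0.36 for Hspg2 between tumor populations, -0.44 to 1.71 for Hspg2 and -2.60 to 1.06 for Sdc1 between control populations, and in the difference from -1.71 to 0.45 (Hspg2), -1.68 to 0.33 (Sdc2) and -2.65 to 0.85 (Sdc3). The cause was not tested.

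Libraries with the same replicate number did not deviate together (r of -0.029 to 0.09), so the numbers do not pair them. With the replicate number as a block, 1855 genes were called in GFP+ cells, 1212 in CD11b+ cells, 11785 and 7529 between tumor and control populations and 1173 for the difference. Sdc1 in GFP+ cells had an adjusted p of 0.0670 under the block, and Sdc2 between control populations 0.0649. The order of the 4 group means was the same by FPKM for all 8 genes. Depth limits values in RasV12 CD11b+ 1 and 2 most.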
